A study of Homo sapiens with 12 samples.

Results

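SYCE2, RHOJ, UBE2N and CHRDL1 were each read by 1 probe, so these 4 genes account for 4 of the 27561 probes and 4 of the 13881 named genes on the array. They were chosen because an earlier fit of the same arrays ranked them among the genes with the smallest p in comparisons of 1 or more of the agents with control. Against control, their values are therefore a description, given here with no test. The probes of SYCE2, RHOJ and UBE2N were brighter on every treated array than on any control array, a separation seen upward in 0.36% of the 13881 genes, and the CHRDL1 probe was dimmer on every treated array, as in 0.432% of genes. The size of these shifts was read at the dim end of the scale. For CHRDL1 the dim arrays were the treated ones, from 15.8 to 29.1 intensity units. On the control arrays SYCE2 lay between 5.33 and 11.2 intensity units, RHOJ between 5.33 and 13.3 and UBE2N between 3.92 and 18.7, where the median of all probes was 86.1.

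The study profiled HepG2 cells, a line labelled as hepatocarcinoma, grown in DMEM with fetal bovine serum, on a 1-colour oligonucleotide array with Cy5-labelled RNA. The 4 groups were mock-treated control cells and cells given glycyrrhizin (the sweet saponin of liquorice), silymarin (a milk thistle extract rich in flavonolignans) or ursodeoxycholic acid (a bile acid used as a drug), each at 25 µM and with 3 arrays. The sources used here give neither exposure time, mock vehicle, scanner nor slide, and do not say whether replicate arrays came from separate cultures, so p-values measure a spread that may be technical. The design implies comparing each agent with control and the agents with each other.

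The 4 genes belong to different processes. SYCE2 encodes a protein of the central element of the synaptonemal complex, the scaffold that joins homologous chromosomes in meiosis, and is known from germ cells. RHOJ is a small GTPase related to CDC42 that is best known from endothelial cells, where it acts on the actin cytoskeleton. UBE2N, also called UBC13, is the ubiquitin-conjugating enzyme that works with UBE2V1 or UBE2V2 to build lysine-63-linked ubiquitin chains in NF-kB signalling and DNA repair, and it is made in most cells. CHRDL1 is a secreted, chordin-like protein that binds bone morphogenetic proteins (BMPs) and keeps them from their receptors.

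The 250 bases before the annotated start of each gene are printed 5′ to 3′ on the gene's own strand, from RefSeq for GRCh38.p14, to let the 3 genes that were brighter on treated arrays be read beside the gene that was dimmer. Capitals mark a GC box (GGGCGG, or CCGCCC on the other strand), the letters bound by Sp1-type factors, and the core of the dioxin response element (GCGTG, or CACGC on the other strand), the letters bound by the aryl hydrocarbon receptor complex. No marked motifs overlap.
SYCE2, chr19:12919294-12919543, minus strand: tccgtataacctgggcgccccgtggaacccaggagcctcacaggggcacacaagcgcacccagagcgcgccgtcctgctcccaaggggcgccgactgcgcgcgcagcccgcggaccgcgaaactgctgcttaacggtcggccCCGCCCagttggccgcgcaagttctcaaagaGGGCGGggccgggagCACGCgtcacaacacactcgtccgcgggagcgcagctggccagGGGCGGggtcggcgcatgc
RHOJ, chr14:63204193-63204442, plus strand: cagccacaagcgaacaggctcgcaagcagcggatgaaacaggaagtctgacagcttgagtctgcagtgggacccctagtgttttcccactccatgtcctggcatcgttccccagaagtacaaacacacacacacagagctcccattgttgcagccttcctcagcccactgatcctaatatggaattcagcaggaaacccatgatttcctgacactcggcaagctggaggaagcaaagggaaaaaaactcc
UBE2N, chr12:93441948-93442197, minus strand: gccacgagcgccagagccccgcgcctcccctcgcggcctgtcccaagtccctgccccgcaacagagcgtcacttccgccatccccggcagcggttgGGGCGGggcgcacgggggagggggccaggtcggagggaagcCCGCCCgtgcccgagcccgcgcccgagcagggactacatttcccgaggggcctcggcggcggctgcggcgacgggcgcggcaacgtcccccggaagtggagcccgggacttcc
CHRDL1, chrX:110795818-110796067, minus strand: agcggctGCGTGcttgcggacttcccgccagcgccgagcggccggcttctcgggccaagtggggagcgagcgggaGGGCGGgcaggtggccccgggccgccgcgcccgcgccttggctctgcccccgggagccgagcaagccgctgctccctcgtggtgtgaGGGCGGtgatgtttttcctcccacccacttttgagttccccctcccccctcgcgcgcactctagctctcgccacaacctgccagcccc
SYCE2 had 3 GC boxes, UBE2N 2 and CHRDL1 2, while the RHOJ window had 0 GC boxes. Of 35116 windows of this length in the same table, 42.6% held a GC box. The dioxin response element core was present once in SYCE2 and once in CHRDL1, and in 32.2% of all windows. Neither a CCAAT box (CCAAT or ATTGG, in 32% of all windows) nor a TATA box (TATAAA or TTTATA, in 10.7%) was found in the 4 windows. The RHOJ window held 5 CG dinucleotides, against 32 in SYCE2, 33 in UBE2N and 27 in CHRDL1. The median over all windows was 11. A match is a run of letters and does not show that a factor binds there.

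SYCE2 lies on chromosome 19 from 12898786 to 12919293. Its log2 intensity on the 3 control arrays, in the order of replicates 1, 2 and 3, was 2.42, 3.48 and 3.17. On the glycyrrhizin arrays it was 4.79, 4.90 and 4.52, on the silymarin arrays 5.63, 4.96 and 5.03, and on the ursodeoxycholic acid arrays 5.01, 5.15 and 4.53. All 9 treated arrays lay above the highest control array, and the gap between the highest control and the lowest treated array was wider than the spread among the ursodeoxycholic acid arrays. Group means were 3.02 ± 0.55 for control, 4.74 ± 0.19 for glycyrrhizin, 5.21 ± 0.37 for silymarin and 4.90 ± 0.32 for ursodeoxycholic acid (SD, n = 3 in each). Over control this made 1.72, 2.19 and 1.88 log2 units, each with a standard error (SE) of 0.31. The 3 differences use the same control arrays and are not independent. In each of the 3 comparisons SYCE2 ranked 1 by p among the genes higher than control, a rank that belongs to the way it was chosen. In order of level, glycyrrhizin and ursodeoxycholic acid overlapped, as did ursodeoxycholic acid and silymarin.

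RHOJ lies on chromosome 14 from 63204443 to 63293508. Its control arrays read 2.42, 3.74 and 3.01 log2 units. The glycyrrhizin arrays read 5.10, 4.64 and 4.71, the silymarin arrays 5.00, 5.10 and 4.30, and the ursodeoxycholic acid arrays 4.66, 4.70 and 4.28. All 9 treated arrays again lay above the 3 control arrays, and the ranges of the 3 agents overlapped throughout. The means were 3.06 ± 0.66, 4.82 ± 0.25, 4.80 ± 0.43 and 4.55 ± 0.23 (SD, n = 3) for control, glycyrrhizin, silymarin and ursodeoxycholic acid. The differences from control were 1.76, 1.74 and 1.49 log2 units (SE 0.34).

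UBE2N lies on chromosome 12 from 93405684 to 93441947. It had the widest control group of the 4 genes, with 1.97, 3.13 and 4.22 log2 units. The glycyrrhizin arrays gave 5.05, 4.90 and 5.66, the silymarin arrays 4.30, 4.66 and 4.78, and the ursodeoxycholic acid arrays 5.27, 5.40 and 5.09. The 9 treated arrays were above every control array, but the lowest silymarin array exceeded control replicate 3 by less than the spread within the silymarin group. Means were 3.11 ± 1.13, 5.21 ± 0.40, 4.58 ± 0.25 and 5.25 ± 0.16 (SD, n = 3) in the same order of groups. UBE2N thus lay 2.10, 1.47 and 2.15 log2 units above control (SE 0.46). The silymarin value rested on single control arrays: it was 0.90 without control replicate 1 and 2.03 without control replicate 3. By level the silymarin arrays all lay below those of both other agents, whose ranges overlapped.

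CHRDL1 lies on the X chromosome from 110673856 to 110795817 and was the gene of the 4 that was dimmer after treatment. Its control arrays read 6.02, 6.46 and 7.37 log2 units. The glycyrrhizin arrays read 3.98, 4.58 and 4.47, the silymarin arrays 4.46, 4.82 and 4.86, and the ursodeoxycholic acid arrays 4.85, 4.86 and 4.65. Every treated array lay below every control array, and the lowest control array was more than 1 log2 unit above the highest treated array. The means were 6.62 ± 0.68, 4.35 ± 0.32, 4.71 ± 0.22 and 4.79 ± 0.12 (SD, n = 3), so that the differences from control were -2.27, -1.90 and -1.83 log2 units (SE 0.32). Glycyrrhizin and silymarin overlapped, as did silymarin and ursodeoxycholic acid.

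**Figure D1:**
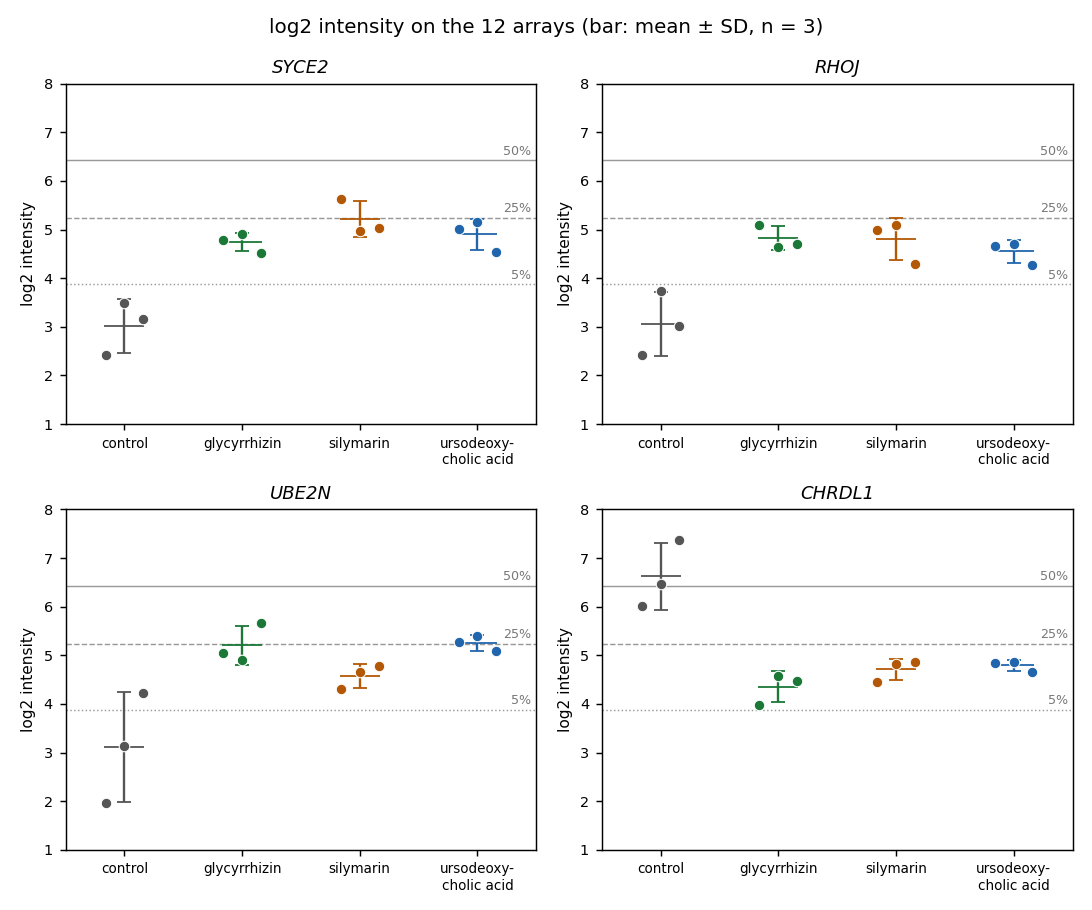
Each point is the log2 intensity of 1 probe on 1 array (3 arrays in each of 4 groups), with the mean and SD as bars, and grey lines mark the 5th, 25th and 50th percentiles of all deposited values. SYCE2, RHOJ and UBE2N have control arrays at or below the 5th percentile line apart from UBE2N on control replicate 3 (4.22), and the CHRDL1 controls (6.02 to 7.37) stand above all its treated arrays.

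The share of genes with all 9 treated arrays on the same side of the 3 control arrays was also counted by brightness. In the dimmest of 10 equal brightness classes, where SYCE2, RHOJ and UBE2N lie, 0.432% of 1389 genes were separated upward. In the class of CHRDL1, 0.576% of 1388 genes were separated downward. For single agents the shares of all genes with every array above control were 6.98% for glycyrrhizin, 6.21% for silymarin and 5.3% for ursodeoxycholic acid. The shares with every array below control were 5.76%, 4.62% and 4.21%. Since the separation from control is what the 4 genes were picked on, nothing is read from their counts against these shares. Across all genes, limma with Benjamini-Hochberg adjustment called 0.0072% in glycyrrhizin against control (1 gene, MIEN1) and 0% in each of silymarin, ursodeoxycholic acid and the mean of the 3 agents against control. At an unadjusted p under 0.05 there were 792, 728, 770 and 633 genes.

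The probes of SYCE2, RHOJ and UBE2N sat close to the lowest intensities, and most closely on the control arrays. The deposited values ran from 1 to 65221 intensity units, with 5% of them under 14.8 and 10% under 21.2. All 3 SYCE2 control arrays, all 3 RHOJ control arrays and 2 of 3 UBE2N control arrays were under that 5% mark, and no treated array of these genes was. Within each array, the SYCE2 probe ranked between percentiles 0.816 and 2.9 of all probes in the controls and between 11.4 and 34.3 after treatment. RHOJ went from percentiles 0.816 to 4.12 in controls to 8.25 to 22 after treatment. For UBE2N the control range was 0.459 to 7.79 and the treated range 8.49 to 34.8. CHRDL1 ran the other way, from percentiles 42.6 to 66 in the controls to 5.65 to 17.2 after treatment. No detection calls accompanied the values used here, so a probe near the lowest intensities cannot be told from background. A probe's brightness also depends on the probe, and these ranks do not order the amounts of the 4 transcripts.

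In linear units the shifts were small for 3 of the genes. The mean over the 9 treated arrays exceeded the control mean by 23.2 intensity units for SYCE2 (31.7 against 8.5), by 18 for RHOJ (26.9 against 8.92) and by 23 for UBE2N (33.5 against 10.4). These steps equal 26.9%, 20.9% and 26.7% of the median probe's intensity. CHRDL1 stood at 106 units in control and 24.9 after treatment, a difference of -81.1 units.

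Adding a constant before the logarithm, which damps the dim end of the scale, separated CHRDL1 from the other 3. For the mean of the 3 agents against control, SYCE2 was 1.93 log2 units with no offset, 0.95 with an offset of 16 and 0.48 with an offset of 50. RHOJ went from 1.67 to 0.79 and 0.38. UBE2N went from 1.91 to 0.92 and 0.46. By absolute size among all genes these 3 ranked 17, 43 and 18 with no offset, and 272, 547 and 301 with an offset of 50. CHRDL1 was -2.00, -1.50 and -1.01 log2 units and ranked 15, 9 and 15. No sign changed. With the dimmer 25% of probes left out, none of the 4 genes remained to be tested.

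**Figure D2:**
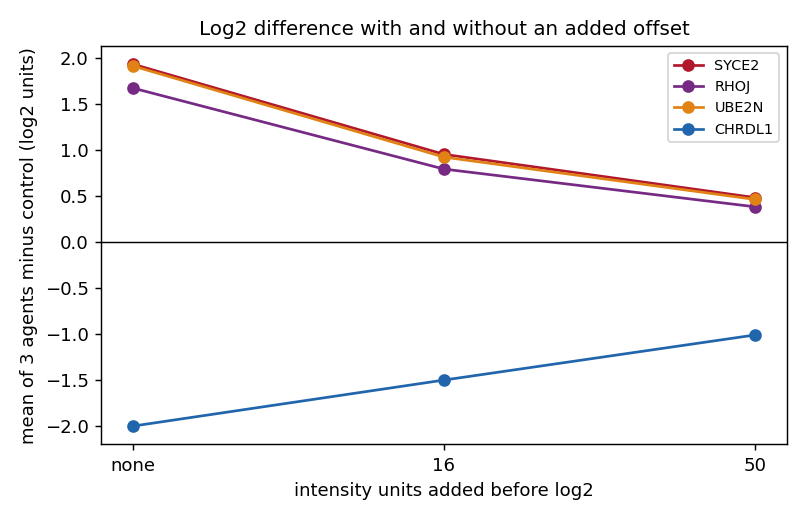
The y axis gives the mean of the 3 agents minus control in log2 units, and the x axis the intensity units added to every value before the logarithm (none, 16 or 50). SYCE2, RHOJ and UBE2N come down to between 0.38 and 0.48 at an offset of 50, and CHRDL1 stays at -1.01.

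Dim probes also varied most between arrays of a group. The residual SD, the spread of a gene around its group means, was typically 0.83 log2 units in the dimmest of those 10 brightness classes and 0.19 in the brightest (medians). SYCE2 had a residual SD of 0.38, RHOJ 0.43 and UBE2N 0.62, all below the median of their class. CHRDL1 had 0.40, where its class had a median of 0.53. A low spread favours a small p and so belongs to the selection of these genes. Control replicate 1 was the lowest control array for all 4 genes, including CHRDL1, whose shift was in the other direction. Without it, the mean difference of the agents from control was 1.62 for SYCE2, 1.35 for RHOJ, 1.34 for UBE2N and -2.30 for CHRDL1.

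**Figure D3:**
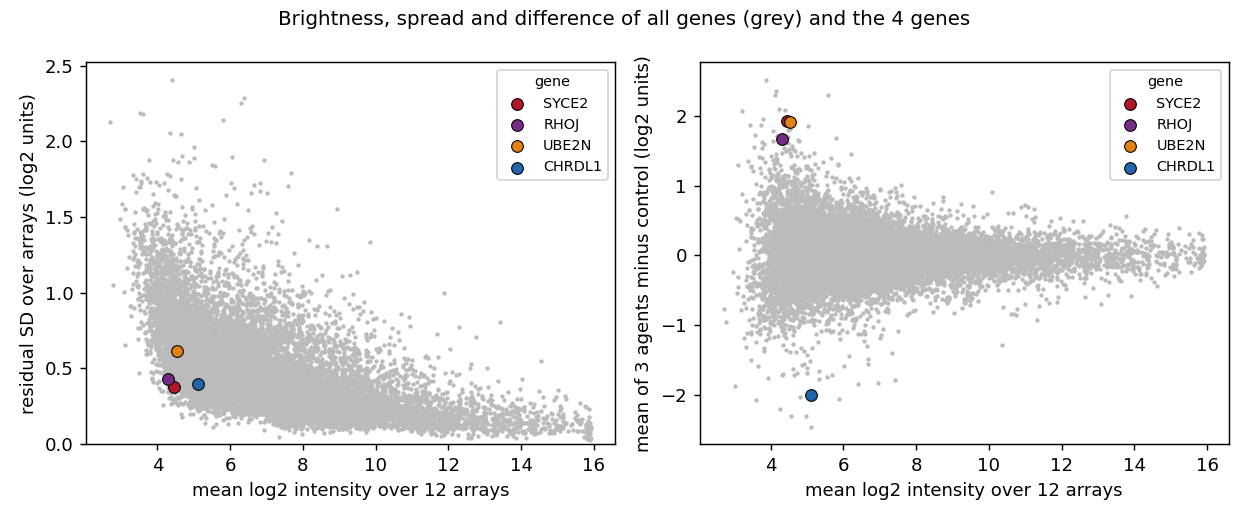
Both panels plot all 13881 genes (grey) against mean log2 intensity over 12 arrays, with the residual SD on the left and the mean of the 3 agents minus control on the right, both in log2 units. The 4 genes lie at the dim end (4.30 to 5.12), below or near the middle of the spread there and at the outer edge of the differences.

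The agents could be compared with each other by a test, because those contrasts were not directly what chose the genes. Where a gene was chosen for shifts with more than 1 agent, agent means that lie close together may still have been favoured. The absence of calls below is therefore not free of the choice. The spread in these tests is pooled over all 4 groups, control included, and a low spread favoured the choice of these genes, so the intervals may be too narrow. In 12 such comparisons (4 genes, 3 pairs of agents at the same 25 µM), limma called 0 at an adjusted p under 0.05 over all genes, and 0 had an unadjusted p under 0.05. Of all 13881 genes, 0.0504% were called between glycyrrhizin and silymarin (1369 genes at an unadjusted p under 0.05), 0% between glycyrrhizin and ursodeoxycholic acid (706 genes) and 0.0504% between silymarin and ursodeoxycholic acid (1182 genes). SYCE2 differed by -0.47 log2 units between glycyrrhizin and silymarin, with a 95% interval from -1.15 to 0.21 (limma adjusted p = 0.697). All 3 glycyrrhizin arrays lay below all 3 silymarin arrays, as held for 9.16% of all genes. The differences of SYCE2 were -0.16 for glycyrrhizin minus ursodeoxycholic acid (-0.83 to 0.52) and 0.31 for silymarin minus ursodeoxycholic acid (-0.37 to 0.99).

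For UBE2N the silymarin group stood lowest of the 3 agents. Glycyrrhizin minus silymarin was 0.62 log2 units (95% interval -0.39 to 1.64, limma adjusted p = 0.74), and silymarin minus ursodeoxycholic acid was -0.67 (-1.69 to 0.34, adjusted p = 0.667). The groups did not overlap in either pair, which 9.07% of genes showed upward in the first pair and 7.82% downward in the second. Glycyrrhizin and ursodeoxycholic acid differed by -0.05 (-1.06 to 0.96). The intervals for UBE2N were the widest of the 4 genes.

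RHOJ differed by at most 0.27 log2 units between agents. Glycyrrhizin minus silymarin was 0.02 (-0.73 to 0.76), glycyrrhizin minus ursodeoxycholic acid 0.27 (-0.47 to 1.02) and silymarin minus ursodeoxycholic acid 0.25 (-0.49 to 1.0). For CHRDL1 the same differences were -0.37 (-1.07 to 0.33), -0.44 (-1.14 to 0.26) and -0.08 (-0.77 to 0.62). The glycyrrhizin arrays of CHRDL1 lay wholly below those of ursodeoxycholic acid, a pattern of 5.81% of all genes. Adjusted p-values for RHOJ and CHRDL1 were between 0.793 and 0.994. The intervals reach beyond 1 log2 unit in several pairs, so these data do not show that the agents act alike on the 4 genes.

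**Figure D4:**
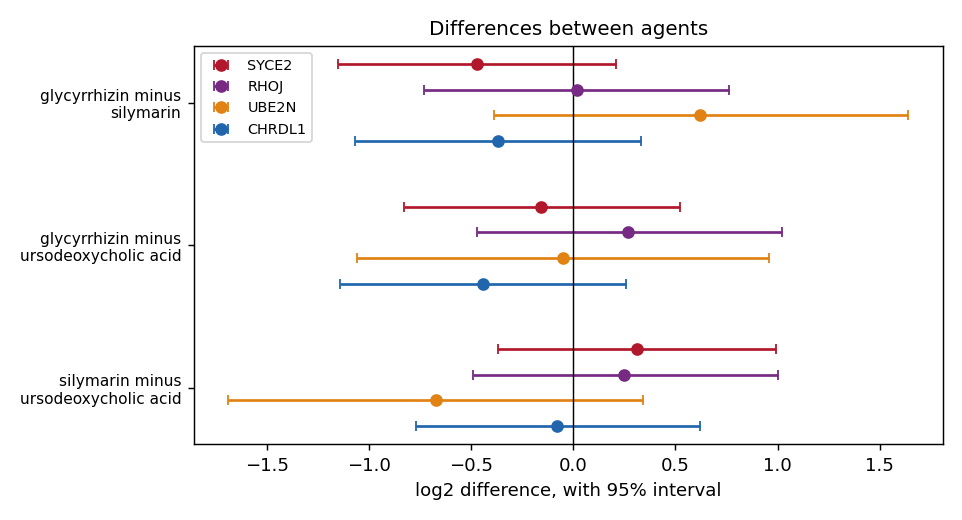
Points are the log2 differences between 2 agents for each gene, with 95% intervals from the limma fit (3 arrays a group), and the vertical line marks no difference. All 12 intervals include 0, and the UBE2N intervals are the widest.

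Limma called none of the measured UBE2N partners and genes of lysine-63 ubiquitin signalling against control. Of 28 listed genes, 26 were measured. Relative to control, 13 were higher and 13 lower under glycyrrhizin, 14 and 12 under silymarin, and 17 and 9 under ursodeoxycholic acid. The median differences were -0.00, 0.02 and 0.09 log2 units, beside 0.02 for all genes in each comparison. The call count was 0 in each comparison and direction. At an unadjusted p under 0.05 there were 4, 2 and 3, beside 792, 728 and 770 of all 13881 genes.

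MAP3K7 encodes TAK1, the kinase that is activated downstream of lysine-63 chains, and had the smallest p of the list with each agent. Its control arrays read 6.17, 6.30 and 8.41 log2 units, the glycyrrhizin arrays 5.10, 3.51 and 4.58, the silymarin arrays 4.78, 4.58 and 4.30, and the ursodeoxycholic acid arrays 4.20, 4.98 and 4.53. All 9 treated arrays lay below the 3 control arrays, as in 0.432% of all genes and the reverse of UBE2N. Control replicate 3 stood far above the other control arrays. The differences from control were -2.57, -2.41 and -2.39 log2 units (SE 0.57), with limma adjusted p-values of 0.419, 0.663 and 0.532. The mean of the 3 agents differed from control by -2.46 (adjusted p = 0.363), and by -1.73 without control replicate 3. A second, dimmer MAP3K7 probe did not share this: its mean was 4.31 ± 0.87 in control (SD, n = 3), and the mean of the agents lay 0.42 above it.

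UBE2V2, the partner that forms the chain-building dimer with UBE2N, was bright, at 9.62, 9.82 and 10.10 log2 units in control. It read 8.77, 9.34 and 8.55 with glycyrrhizin, 9.65, 10.05 and 9.55 with silymarin, and 9.35, 9.0 and 8.56 with ursodeoxycholic acid. The glycyrrhizin and ursodeoxycholic acid arrays lay below every control array, as in 5.76% and 4.21% of all genes. The silymarin arrays overlapped control. The differences were -0.96, -0.09 and -0.88 log2 units (SE 0.28, limma adjusted p = 0.641, 0.985 and 0.76). TRAF6, a ubiquitin ligase that uses UBE2N in immune receptor signalling, differed by -0.47, -0.53 and -0.10 (SE 0.61), with -0.85 to -0.16, -1.08 to 0.20 and -0.43 to 0.19 when 1 array was left out. RNF8, a ligase of the DNA damage response, differed by 0.26, 0.18 and 0.17 (SE 0.18). UBE2V1 is not analysed here.

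**Figure D5:**
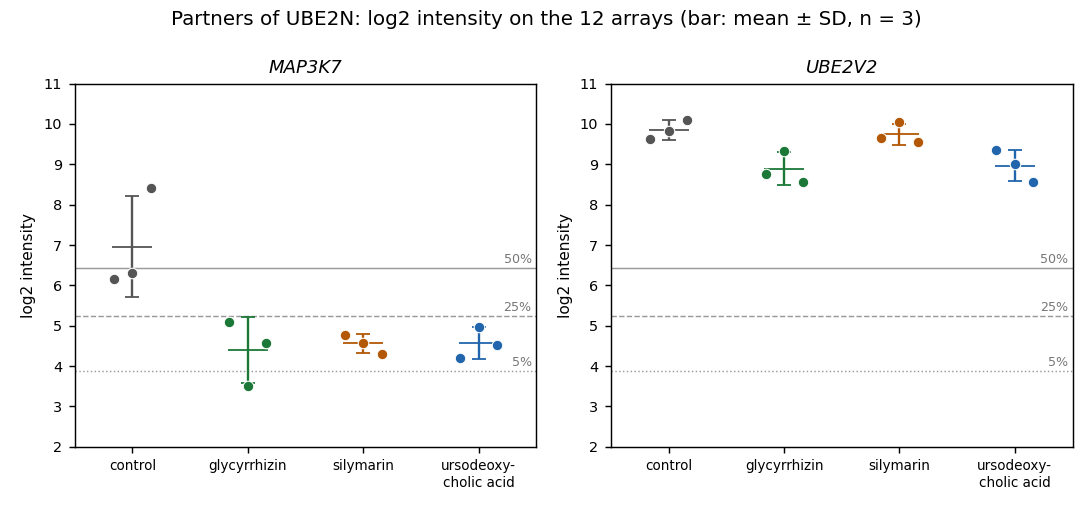
Log2 intensity of the brighter MAP3K7 probe and of UBE2V2 on each of 12 arrays, with the mean and SD of 3 arrays as bars and the percentiles of all deposited values as grey lines. MAP3K7 is lower on all 9 treated arrays than on the controls, and UBE2V2 on the glycyrrhizin and ursodeoxycholic acid arrays.

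Limma called none of the measured BMP pathway genes against control. Of 41 listed, 34 were measured. With glycyrrhizin 17 were higher and 17 lower than control, with silymarin 14 and 20, and with ursodeoxycholic acid 16 and 18. Their median differences were 0.00, -0.06 and -0.03 log2 units, and 1 in each comparison had an unadjusted p under 0.05. CHRD, the founding chordin, differed by -0.11, -0.14 and -0.13 (SE 0.42), and CHRDL2, a close relative of CHRDL1, by 0.18, 0.18 and -0.55 (SE 0.42). The last value ran from -1.16 without ursodeoxycholic acid replicate 3 to -0.14 without replicate 1. BMP4, a ligand that CHRDL1 binds, differed by 0.28, -0.38 and -0.28 (SE 0.34).

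ID1, a direct transcriptional target of BMP signalling, differed by -0.06, -0.22 and -0.54 log2 units (SE 0.52). Leaving out 1 array took these over -0.36 to 0.28, -0.45 to 0.17 and -0.94 to 0.03. SMAD7, an inhibitory SMAD, had the smallest p of the list with glycyrrhizin and with ursodeoxycholic acid, at -1.03 and -1.01 (SE 0.42, limma adjusted p = 0.798 and 0.893). It stood at 0.18 with silymarin, and the ursodeoxycholic acid value was -0.49 without replicate 3 of that group. SOSTDC1, another secreted BMP antagonist, had the smallest p with silymarin, at -0.76 (SE 0.34, adjusted p = 0.931), and was -0.34 without silymarin replicate 1.

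In the synaptonemal complex and meiosis list, 19 of 30 genes were measured, and 11 to 13 of them stood below control with each agent. Higher and lower counts were 8 and 11 with glycyrrhizin, 6 and 13 with silymarin, and 7 and 12 with ursodeoxycholic acid. Of all 13881 genes, 6595, 6620 and 6619 stood lower. The 3 comparisons share the same control arrays, so their counts are not independent. The medians were -0.14, -0.15 and -0.16 log2 units, with 0.02 for all genes. Limma called 0, and 0, 0 and 2 had an unadjusted p under 0.05, beside 792, 728 and 770 of all 13881 genes. SYCP1, the transverse filament protein that SYCE2 connects to, was dim and scattered, with control arrays at 4.72, 2.35 and 5.49 and differences of 0.72, -0.15 and 0.32 (SE 0.94). TEX12, which forms filaments with SYCE2, differed by 0.01, -0.18 and -0.95 (SE 0.44). Its ursodeoxycholic acid arrays read 6.28, 6.54 and 8.33. Without replicate 3 of that group the TEX12 difference was -1.59 with a limma adjusted p of 0.0411. SYCP2L, also on the list, was called in the same setting, at -2.40 (limma adjusted p = 0.0411), and is named only for that. With all 12 arrays, the lowest limma adjusted p of the list for ursodeoxycholic acid against control was 0.786. Without replicate 3 of that group, 20 genes were called over the whole array where all 12 arrays called 0.

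TRIP13, an ATPase that remodels HORMA-domain proteins on meiotic and mitotic chromosomes, had the smallest p of that list with glycyrrhizin. It was above control on 9 of 9 treated arrays, as in 0.36% of all genes. The groups only just separated, with the highest control array at 7.46 and the lowest treated array at 7.48 log2 units. The differences were 0.43, 0.38 and 0.60 log2 units (SE 0.21, limma adjusted p = 0.883, 0.94 and 0.852). C14orf39, also called SIX6OS1 and a central element protein like SYCE2, differed by -0.62, 0.35 and -1.04 (SE 0.34). STAG3, the meiotic cohesin subunit, differed by -0.07, 0.63 and -0.09 (SE 0.34). SYCE1 and SYCE3 are not analysed here.

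The 3 genes with the most similar profile over the 12 arrays were found for each of the 4 genes by Pearson's r, given as a description, since all 12 arrays and the same 3 controls enter each value. A gene found this way tends to share the separation from control that chose the 4 genes, so its values against control are given with no test. SYCE2 and RHOJ were nearest to each other (r = 0.93). INTU, a planar cell polarity gene, followed SYCE2 with r = 0.90, and RNF13, a ubiquitin ligase of endosomal membranes, with 0.89. RNF13 was bright, with control arrays at 12.34, 12.37 and 12.34 log2 units and treated arrays from 12.48 to 12.77. Its differences from control were 0.21, 0.38 and 0.23. Its second, dim probe had a mean difference of 0.58, with glycyrrhizin and silymarin arrays overlapping control.

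SLC15A1, the intestinal peptide transporter PEPT1, followed RHOJ with r = 0.91, and ANTKMT, a mitochondrial lysine methyltransferase, with 0.88. For UBE2N the nearest genes were HPCA, a neuronal calcium sensor (r = 0.94), CD83, an immunoglobulin-family surface protein (0.90), and GABRD, a GABA receptor subunit (0.89). HPCA had control arrays at 5.95, 6.08 and 6.88 log2 units and treated arrays from 6.89 to 7.46, so the groups just separated. For CHRDL1 they were KLF13, a zinc finger transcription factor (0.92), SLC7A6, an amino acid transporter subunit (0.91), and ERF, an ETS-family repressor (0.90). KLF13 was bright, with control arrays at 11.65, 11.80 and 12.07 and treated arrays from 11.23 to 11.54. Its second probe stood lower on average (mean difference -0.67 beside -0.47). On that probe the silymarin arrays (6.14 to 6.50) overlapped control (6.24 to 6.93), and those of the other agents lay below it.

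Markers of the labelled cell type and of cells in which SYCE2 and RHOJ are best known were read on the same arrays. The 12 of 15 hepatocyte markers measured had a median level of 6.79 log2 units, from 5.17 for APOA2 to 8.89 for APOB. That is near the median of all genes (6.70). Endothelial and leukocyte markers had higher medians (7.44 and 7.54), fibroblast and germ cell markers lower ones (6.16 and 4.96). The hepatocyte list thus did not stand out on these arrays. With no detection calls, these levels do not show whether a marker was present. Summed intensity of 8 of 9 germ cell markers ran from 369 to 582 in control, 458 to 466 with glycyrrhizin, 392 to 518 with silymarin and 410 to 502 with ursodeoxycholic acid and so overlapped control with every agent. Their part in the SYCE2 values was not tested. The list shares SYCP1, SYCP3 and DMC1 with the meiosis list. The 9 endothelial markers summed to 1954 to 2060 in control, 2246 to 2372 with glycyrrhizin, 1937 to 2129 with silymarin and 2116 to 2237 with ursodeoxycholic acid. Their sums stood above control with glycyrrhizin and ursodeoxycholic acid and overlapped it with silymarin. Of single genes, 6.98% stood wholly above control with glycyrrhizin and 5.3% with ursodeoxycholic acid. The part of these markers in the RHOJ values was not tested. The 7 of 8 fibroblast markers summed to 1511 to 1880 in control, 1877 to 2164 with glycyrrhizin, 1407 to 1456 with silymarin and 1399 to 2114 with ursodeoxycholic acid. The silymarin sums lay wholly below control, as did 4.62% of single genes with that agent. Such sums are linear, so the brightest marker weighs most. It was COL1A1 among the fibroblast markers (10.13 log2 units, list median 6.16) and CDH5 among the endothelial ones (9.63, list median 7.44). A sum can therefore shift with 1 gene and does not show that a set of markers moved. The 6 of 8 leukocyte markers summed to 1895 to 2010 in control, 2000 to 2218 with glycyrrhizin, 1447 to 1948 with silymarin and 1910 to 2395 with ursodeoxycholic acid, overlapping control in each case. No marker was at 0, since the lowest deposited value is 1. Over all genes, arrays correlated as closely between groups (median r = 0.946) as within them (0.945). In bulk RNA, fewer cells with a transcript and less of it per cell cannot be told apart.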

How the data were processed

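The authors deposited linear intensity values, 1 for each probe on each array. The submitters' processing notes name limma; the sources used here do not give background correction or normalization steps. The deposited values share a common distribution: at equal rank the 12 arrays spread by a median of 1.22%. Of 27561 probes, 15650 carried 1 gene symbol in the platform annotation, 0 several and 11911 none. Symbols were updated through a RefSeq gene table (2355 probes; 68 ambiguous ones kept), and the probe with the highest mean over all arrays stood for each of 13881 genes.

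Intensities were log2-transformed with no offset and fitted in R 4.3.3 with lmFit and eBayes of limma 3.58.1 (1 mean per group, all 12 arrays, 8 residual and 2.71 prior degrees of freedom). Tests were two-sided and adjusted over all 13881 genes by Benjamini-Hochberg, with a threshold of 0.05 and 95% intervals from the same fit. Tables and figures were made with Python 3.11.15, pandas 2.3.3, numpy 2.4.6 and matplotlib 3.10.9.

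The 4 genes and the 4 gene lists and 5 marker lists were chosen with earlier results of these data known; the results of 1 gene list are not reported here. The rule named the 4 genes, the 3 genes most correlated with each, and from each list the direct relatives, the smallest p with each agent and any gene called in any of 7 comparisons. Alternatives were the replicate number as a block, renormalization, offsets of 16 and 50, leaving out dim probes, averaging probes, a variance trend, weights for arrays, fits on the 2 compared groups alone and leaving out each array. A variance prior from all probes was added after seeing the data. The 3 arrays a group limit the precision. The test was checked on simulated arrays for glycyrrhizin against silymarin, with 200 changed genes among 13881. It found 68.6% of the 4-fold and 95% of the 16-fold changes, with 4.44% of calls false. The simulated noise was independent and normal, and the changed genes were drawn at random from all brightness levels. These shares are therefore averages, and do not give the share found among dim genes or for smaller differences.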

Additional observations from a re-analysis of the deposited data

How the results depend on the processing

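The direction of the 4 genes against control held under every alternative that gave them a value, but nothing is read from this. With every treated array on 1 side of the 3 control arrays, leaving out an array or adding an offset could not turn it. The block, the variance trend and prior, fits on 2 groups and probe averaging left the differences as they were. Only the offsets of 16 and 50 moved the mean of the 3 agents by more than the replicate SD. SYCE2 went from 1.93 to 0.95 and 0.48 log2 units, and RHOJ from 1.67 to 0.79 and 0.38. UBE2N went from 1.91 to 0.92 and 0.46, and CHRDL1 from -2.00 to -1.50 and -1.01. Leaving out 1 array gave 1.62 to 2.16, 1.35 to 2.01, 1.34 to 2.46 and -2.30 to -1.63. With the dimmer 25% or 50% of probes left out, the 4 genes had no value. Between agents, 264 tests of the 4 genes under 22 settings gave 0 calls (lowest limma adjusted p = 0.374). The choice of the genes may bear on these tests too. Signs turned only near 0: RHOJ, glycyrrhizin minus silymarin, was -0.000852 with an offset of 50 and -0.23 to 0.16 without 1 array. UBE2N, glycyrrhizin minus ursodeoxycholic acid, was -0.28 to 0.10 and CHRDL1, silymarin minus ursodeoxycholic acid, -0.15 to 0.05.

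Counts of genes called over the whole array moved more. Glycyrrhizin against control gave 1, then 2 and 7 with the offsets, 2 and 3 without dim probes, 17 with a variance trend, 3 with array weights, and 0 with the compared groups alone, the replicate block or the variance prior from all probes. Silymarin against control gave 0, then 1 and 2 with the offsets, 1 and 2 without dim probes, 4 with the trend and 1 with weights. Ursodeoxycholic acid against control gave 0, then 3, 6, 2, 2, 6 and 4 in the same order. The mean of the agents gave 0, then 3 with the offset of 50 and 3 with the trend. Glycyrrhizin against silymarin gave 7, then 19, 129, 18, 110, 217 and 20 in that order, and 0 with the groups alone. Silymarin against ursodeoxycholic acid gave 7, then 3 with the offset of 16, 3 and 4 without dim probes, 16 with the trend, 0 with the groups alone and 4 with the prior from all probes. Without 1 array these counts ran over 0 to 1, 0 to 3, 0 to 20, 0 to 0, 0 to 6 and 0 to 32, and 0 to 1 for glycyrrhizin against ursodeoxycholic acid. The highest, 20 and 32, came without ursodeoxycholic acid replicate 3, and the 3 for silymarin without its replicate 1. The cause was not tested.

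Over all genes, deviations from group means of 18 same-numbered pairs of arrays correlated with a median r of 0.0234 (-0.189 to 0.153, 4 over 0.1). For arrays of different number and group the median was -0.00519. Whether the replicate numbers pair the arrays for some of the genes was not tested. With the replicate number as a block, the counts of both pairs with 7 calls were 0, and the differences of the 4 genes were as without it.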
